A study of Danio rerio with 14 samples.

Results

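The genes described here make, carry, break down or sense retinoic acid (RA) in the zebrafish gastrula. They are 9 of the 13830 gene symbols in the table, picked by symbol and not by their values: rdh10a, aldh1a2, dhrs3a, crabp2a, crabp2b, cyp26a1, raraa, rarab and rarga. crabp2b is listed as 2 RefSeq transcripts, so the 9 genes give 10 of 14532 transcripts. RA is made from vitamin A in successive oxidations inside the cell, moves between neighbouring cells, and acts by binding nuclear receptors that sit on DNA with retinoid X receptors. Cells that hold RA-degrading enzymes act as sinks, so that synthesis and breakdown together set where RA acts. In the zebrafish embryo RA is best known for patterning the hindbrain, spinal cord and trunk mesoderm along the head-to-tail axis, while the signals called bone morphogenetic proteins (BMPs) act at the same stages along the back-to-belly axis.

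RNA of whole embryos was sequenced in 14 libraries of 6 groups. Homozygous bmp7a sb1aub embryos, called bmp7 mutants below, were treated with cycloheximide (CHX), an inhibitor of translation, at 10 ug/ml for 30 minutes at 4 hours post fertilization (hpf). These gave 3 libraries with injected human BMP2-BMP7 heterodimer (3 nl of 120 nM, or 10 pg) and 3 libraries of CHX-treated mutants without BMP2/7 protein, from 50 embryos each. The protein was injected after the CHX treatment. RNA was collected at a fixed time after the injections, so the CHX-treated embryos were then older than 4 hpf. Untreated bmp7 mutants and wild-type (TU) embryos gave 2 libraries each at 8 hpf (70% epiboly, mid-gastrula) and 2 each at 6 hpf (shield, early gastrula), from 40 embryos each. The mutant embryos came from homozygous parents that had been rescued with bmp7a mRNA, so the effect of the mutation and differences between the parents or lines cannot be told apart. The headings of the control libraries read Aub-/+, that is heterozygous, where the sample labels give wild-type. Embryos injected with the carrier solution alone are not among the 14 libraries. Nothing in the labels says that libraries came from separate crosses, so the p-values below measure only the spread between these libraries.

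Total counts ranged from 5034277, in bmp7 mutant 8 hpf replicate 1, to 23153881. Levels are in CPM, that is counts scaled to a common library size by TMM factors over all 14 libraries, and a value of 3 counts in 1 library is 0.128 to 0.662 CPM. The transcript of bmp7a itself, the mutated BMP ligand gene, had 3.33 and 1.89 CPM in mutants against 63.9 and 60.1 CPM in wild-type at 6 hpf, and 0.882 and 0.470 CPM against 40.3 and 43.8 CPM at 8 hpf. In the 6 CHX libraries it lay between 14.8 and 28.9 CPM, and CHX-treated wild-type embryos are not among the libraries. Summed markers of ventral ectoderm (5 genes, none of them at 0 in any group) were lower in the mutants, at 76.9 to 78.7 CPM against 149 to 291 CPM at 6 hpf and at 80.5 to 85.6 CPM against 492 to 498 CPM at 8 hpf. Summed markers of neural ectoderm (6 genes, 1 of them at 0 in the mutants at 6 hpf and in both genotypes at 8 hpf) were higher, at 1700 to 1980 CPM against 971 to 1250 CPM and at 1880 to 1888 CPM against 1029 to 1339 CPM. In such bulk samples, fewer cells of a type and less RNA per cell cannot be told apart, and the part of these markers in the results below was not tested.

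**Figure D1:**
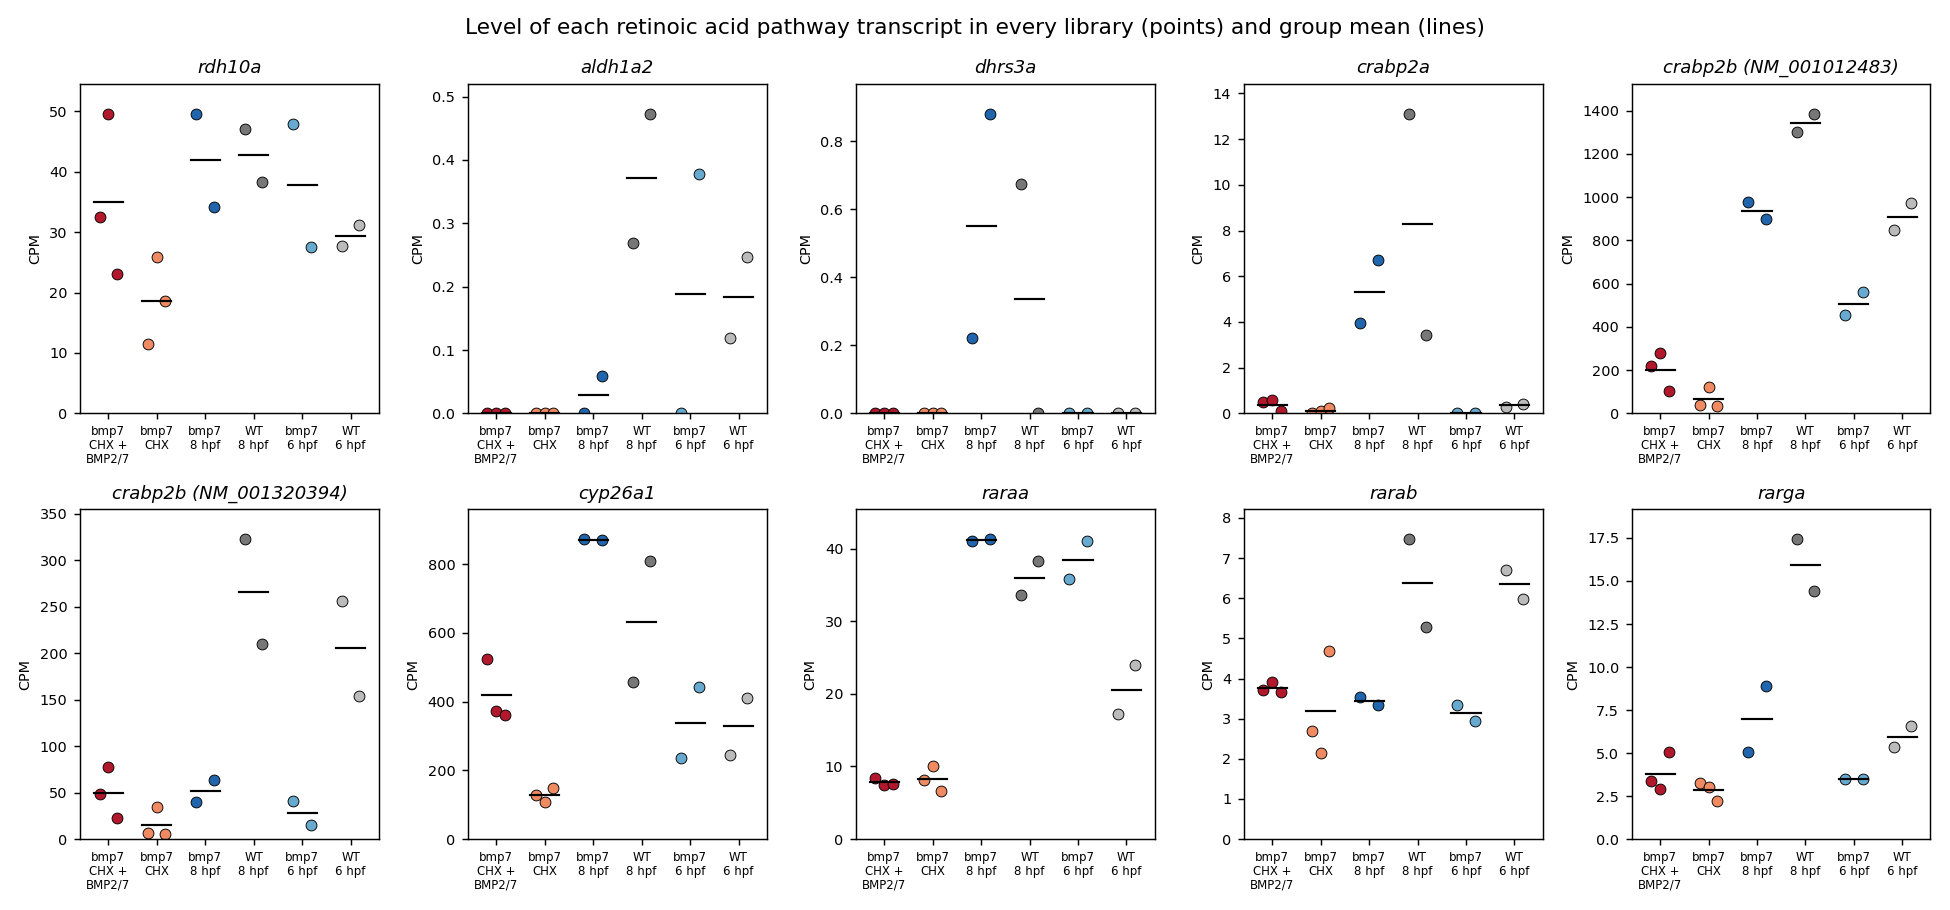
Level of the 10 transcripts (CPM, linear axes that start at 0 and differ between panels) in each of the 14 libraries, shown as points, with the group mean as a line. Both crabp2b transcripts lie lower in the mutants than in the wild-type libraries of the same stage, cyp26a1 lies higher with BMP2/7 protein than without it under CHX, and aldh1a2 and dhrs3a stay under 1 CPM in every library.

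The transcripts differed in how well they could be seen. crabp2b NM_001012483 had at least 438 counts in every library and cyp26a1 at least 1824, while rarab had as few as 16, and aldh1a2 and dhrs3a had at most 15. Differences were tested with the edgeR quasi-likelihood test on all transcripts that passed a filter on low counts, with Benjamini-Hochberg adjustment over all of them and a threshold of 0.05. At 6 hpf 9 of the 10 transcripts passed the filter. Among them, dhrs3a had 0 counts at that stage, so it could not differ and entered with a log2 fold change of 0. Of the 9, 3 differed between mutants and wild-type, 1 higher and 2 lower in mutants. The 2 lower ones were both transcripts of crabp2b. Of all transcripts tested, 6.44% were higher and 9.02% lower. At 8 hpf 1 of 9 was lower in mutants, against 2.07% of all transcripts tested. With BMP2/7 protein under CHX 1 of 7 was higher, against 1.87% of all transcripts, in a fit that did not pair libraries of the same replicate number. The median log2 fold change of the tested members was -0.79 at 6 hpf, -0.52 at 8 hpf and 0.92 under CHX, beside -0.03, -0.02 and -0.0028 over all transcripts tested. The 6 hpf and 8 hpf comparisons share 1 fit and its estimate of the spread.

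The first step of RA synthesis, the oxidation of retinol to retinaldehyde, is carried out by the enzyme that rdh10a encodes. rdh10a had 47.9 and 27.6 CPM in mutants against 27.7 and 31.2 CPM in wild-type at 6 hpf, and 49.6 and 34.2 CPM against 47.1 and 38.3 CPM at 8 hpf. The genotypes overlapped at both stages. The log2 fold change was 0.33 ± 0.30 (standard error, SE, adjusted p = 0.476) at 6 hpf and -0.03 ± 0.30 (SE, adjusted p = 0.960) at 8 hpf. Under CHX, rdh10a had 32.5, 49.5 and 23.02 CPM with BMP2/7 protein and 11.4, 25.9 and 18.7 CPM without it. The groups overlapped, but each library with BMP2/7 stood above the one of the same replicate number, by 2.84-, 1.91- and 1.23-fold. The log2 fold change of 0.92 (SE 0.35) did not pass the test (adjusted p = 0.382), and with the replicate number as a block it was 0.94 (SE 0.19, adjusted p = 0.0128).

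aldh1a2 encodes the enzyme that turns retinaldehyde into RA, and is the main RA-making enzyme of the early zebrafish trunk. It was at the limit of detection throughout. Its counts were 0 and 1 in mutants against 4 and 7 in wild-type at 8 hpf, 0 and 4 against 2 and 5 at 6 hpf, and 0 in all 6 CHX libraries. It did not pass the filter on low counts in any comparison. The ratio at 8 hpf was 8.00-fold lower in mutants, with a 95% counting interval of 1.16 to 344 that covers counting error only. The 0 counts of mutant 8 hpf replicate 1, the shallowest library, allow up to 0.662 CPM, above the 0.269 and 0.473 CPM of the wild-type libraries, so the order of these libraries is not known. At 6 hpf the genotypes overlapped.

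The product of dhrs3a reduces retinaldehyde back to retinol and so works against RA synthesis. Its counts were 1 and 15 in mutants against 10 and 0 in wild-type at 8 hpf, and 0 in the other 10 libraries. The libraries of one genotype thus differed more from each other than the genotypes did, and at 8 hpf the log2 fold change was 0.92 (SE 1.33, adjusted p = 0.718). Both groups at 6 hpf and both CHX groups were at 0 counts, which allows up to 3 counts a group.

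The cellular RA binding proteins carry RA inside the cell, and in mammals CRABP2 hands it to the RA receptors. The crabp2b transcript NM_001012483 had 455 and 560 CPM in mutants against 846 and 971 CPM in wild-type at 6 hpf. At 8 hpf it had 976 and 899 CPM in mutants against 1302 and 1387 CPM in wild-type. The mutants lay under the wild-type libraries at each stage. At 6 hpf 5 of the 9 tested transcripts of the members had this order (30.7% of all transcripts tested), and at 8 hpf 4 of 9 (30.2%).

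The transcript was 1.83-fold lower in mutants at 6 hpf, a log2 fold change of -0.87 (SE 0.17, adjusted p = 0.0142). Without mutant 6 hpf replicate 1 the adjusted p was 0.0694, and with all 14 libraries in the fit it was 0.255. At 8 hpf the log2 fold change of -0.52 (SE 0.17) did not pass (adjusted p = 0.115). With the counts of both transcripts summed per gene, crabp2b was lower in mutants at both stages, with log2 fold changes of -1.08 (SE 0.15, adjusted p = 0.00542) and -0.71 (SE 0.15, adjusted p = 0.0440).

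The second transcript of crabp2b, NM_001320394, differed more between the genotypes. It had 40.7 and 14.8 CPM in mutants against 257 and 154 CPM in wild-type at 6 hpf, and 40.1 and 63.3 CPM against 323 and 210 CPM at 8 hpf. It was 7.59-fold lower in mutants at 6 hpf (log2 fold change -2.92, SE 0.49, adjusted p = 0.00909), and the call held under every alternative run on this transcript. Without mutant 6 hpf replicate 1 the log2 fold change was -3.81. At 8 hpf it was 5.09-fold lower (log2 fold change -2.35, SE 0.47, adjusted p = 0.0353), the single call among the members at that stage. Leaving out any 1 of the 4 libraries of 8 hpf ended this call, with adjusted p between 0.0600 and 0.238 and log2 fold changes between -2.72 and -2.01, and with all 14 libraries in the fit the adjusted p was 0.0859.

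The share of crabp2b counts that fell on NM_001320394 follows from these values. In mutants it was 8.22% and 2.56% at 6 hpf, against 23.3% and 13.7% in wild-type, and 3.95% and 6.58% against 19.9% and 13.2% at 8 hpf. Each of the 4 mutant libraries thus had a lower share than each of the 4 wild-type libraries, and with 2 libraries a group no exact test could pass within a stage. In CHX-treated mutants the share was 18.2%, 21.7% and 17.7% with BMP2/7 protein and 14.5%, 22.1% and 13.1% without it, which overlapped with each other and with the wild-type range. The binomial interval of a single library was at its widest in CHX replicate 3 (10.3% to 16.4%, exact Clopper-Pearson, counting error only). How reads that both transcripts share were assigned was not stated, so the 2 values are not independent.

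**Figure D2:**
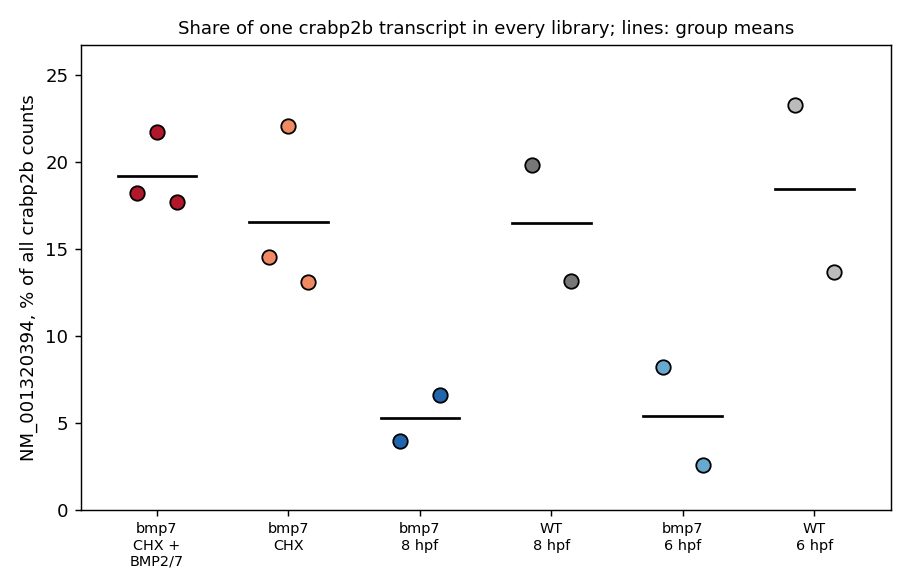
Share of all crabp2b counts (percent, axis from 0) assigned to transcript NM_001320394 in each library, as points, with the group mean as a line. The untreated mutant libraries lie between 2.56% and 8.22%, under the wild-type libraries (13.2% to 23.3%) and under both groups of CHX-treated mutants.

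Under CHX, crabp2b was high in replicate 2 of both groups. NM_001012483 had 220, 280 and 104 CPM with BMP2/7 protein and 37.3, 122.996 and 34.8 CPM without it. NM_001320394 had 49.1, 77.8 and 22.4 CPM with it and 6.33, 34.9 and 5.24 CPM without it. The groups overlapped because CHX replicate 2 lay above the replicate 3 library with BMP2/7. Within each replicate number, though, the BMP2/7 library was the higher one, by 5.91-, 2.28- and 3.00-fold for the first transcript and 7.75-, 2.23- and 4.28-fold for the second.

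The log2 fold changes with BMP2/7 were 1.64 (SE 0.54, adjusted p = 0.268) and 1.69 (SE 0.74, adjusted p = 0.489), neither past the threshold. Same-numbered CHX libraries deviated together, and with the number as a block both transcripts were higher with BMP2/7, by 1.79 (SE 0.21, adjusted p = 0.000462) and 2.001 (SE 0.27, adjusted p = 0.00125). In that fit 4 of the 7 tested transcripts of the members were higher, where 4.47% of all transcripts were. They were those of cyp26a1 and rdh10a and both of crabp2b, whose values are not independent. Without CHX replicate 2 and without a block, the log2 fold changes were 2.50 (adjusted p = 0.0188) and 3.12 (adjusted p = 0.0244). With any other of the CHX libraries left out neither passed, and the log2 fold changes went down to 1.33 and 1.21. Summed per gene and without a block, crabp2b did not pass either (1.65, SE 0.57, adjusted p = 0.309). Replicate 2 also held the highest summed markers of the enveloping layer (5 genes, 1 of them at 0 in each CHX group), with 457 CPM against 131 to 220 CPM in the other libraries with BMP2/7 and 825 CPM against 191 to 312 CPM in those without, and of endoderm (4 genes, none at 0), with 357 CPM against 131 to 288 CPM and 398 CPM against 138 to 205 CPM. Their part in the crabp2b values was not tested.

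**Figure D3:**
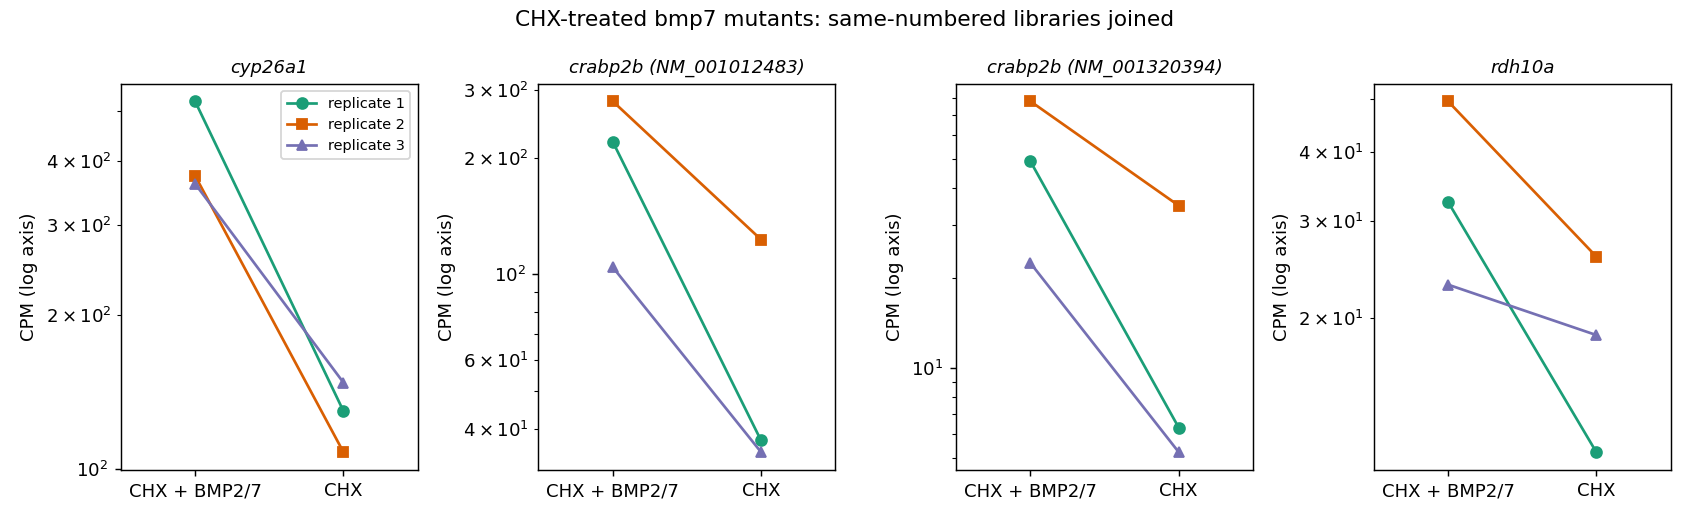
CPM (log axis) of cyp26a1, both crabp2b transcripts and rdh10a in CHX-treated bmp7 mutants with BMP2/7 protein (left) and without it (right), with lines joining libraries of the same replicate number. All 12 lines run lower on the right, and in both crabp2b panels replicate 2 lies highest in each group.

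crabp2a, the paralogue of crabp2b, was nearly silent at 6 hpf and present at 8 hpf. At 8 hpf it had 3.97 and 6.69 CPM in mutants against 13.1 and 3.45 CPM in wild-type, from 18 to 195 counts, and at 6 hpf 0 and 0 counts against 5 and 8 counts. The genotypes overlapped at 8 hpf, where the log2 fold change was -0.60 (SE 0.63, adjusted p = 0.601), and 0.66 without wild-type 8 hpf replicate 1. At 6 hpf it was at least 2.54-fold lower in mutants against a limit of 3 counts over the group, and the test did not pass (adjusted p = 0.0906), though it passed with DESeq2 (adjusted p = 0.0424). With at most 8 counts in a 6 hpf library, crabp2a entered this test through 8 hpf libraries alone. The CHX libraries had 12, 8 and 1 counts with BMP2/7 protein and 0, 2 and 3 without it, too few to be tested.

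cyp26a1 encodes the cytochrome P450 enzyme that oxidizes RA for clearance, and is itself known to be induced by RA. It passed the test with BMP2/7 protein under CHX and did not pass between the genotypes. Under CHX it had 523, 374 and 361 CPM with BMP2/7 protein against 129.7, 108 and 147 CPM without it. The groups did not overlap, an order that 6.87% of all transcripts tested also had. cyp26a1 was 3.30-fold higher with BMP2/7 (log2 fold change 1.72, SE 0.17, adjusted p = 0.00273), the 1 member called. Within replicate numbers the ratios were 4.03, 3.47 and 2.45. The call held under every alternative run, with log2 fold changes between 1.55 and 1.84, and with the block it was 1.72 (SE 0.12, adjusted p = 2.19e-05).

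In the untreated embryos cyp26a1 had 236 and 441 CPM in mutants against 245 and 411 CPM in wild-type at 6 hpf. At 8 hpf it had 872 and 869 CPM in mutants against 456 and 809 CPM in wild-type. The genotypes overlapped at 6 hpf. At 8 hpf the mutants lay above the wild-type libraries, an order that 27.2% of all transcripts tested also had. The log2 fold changes of 0.02 (SE 0.36, adjusted p = 0.980) and 0.47 (SE 0.36, adjusted p = 0.466) did not pass. The response under CHX was measured against CHX-treated mutants, and the difference between it and the genotype comparisons was not tested.

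**Figure D4:**
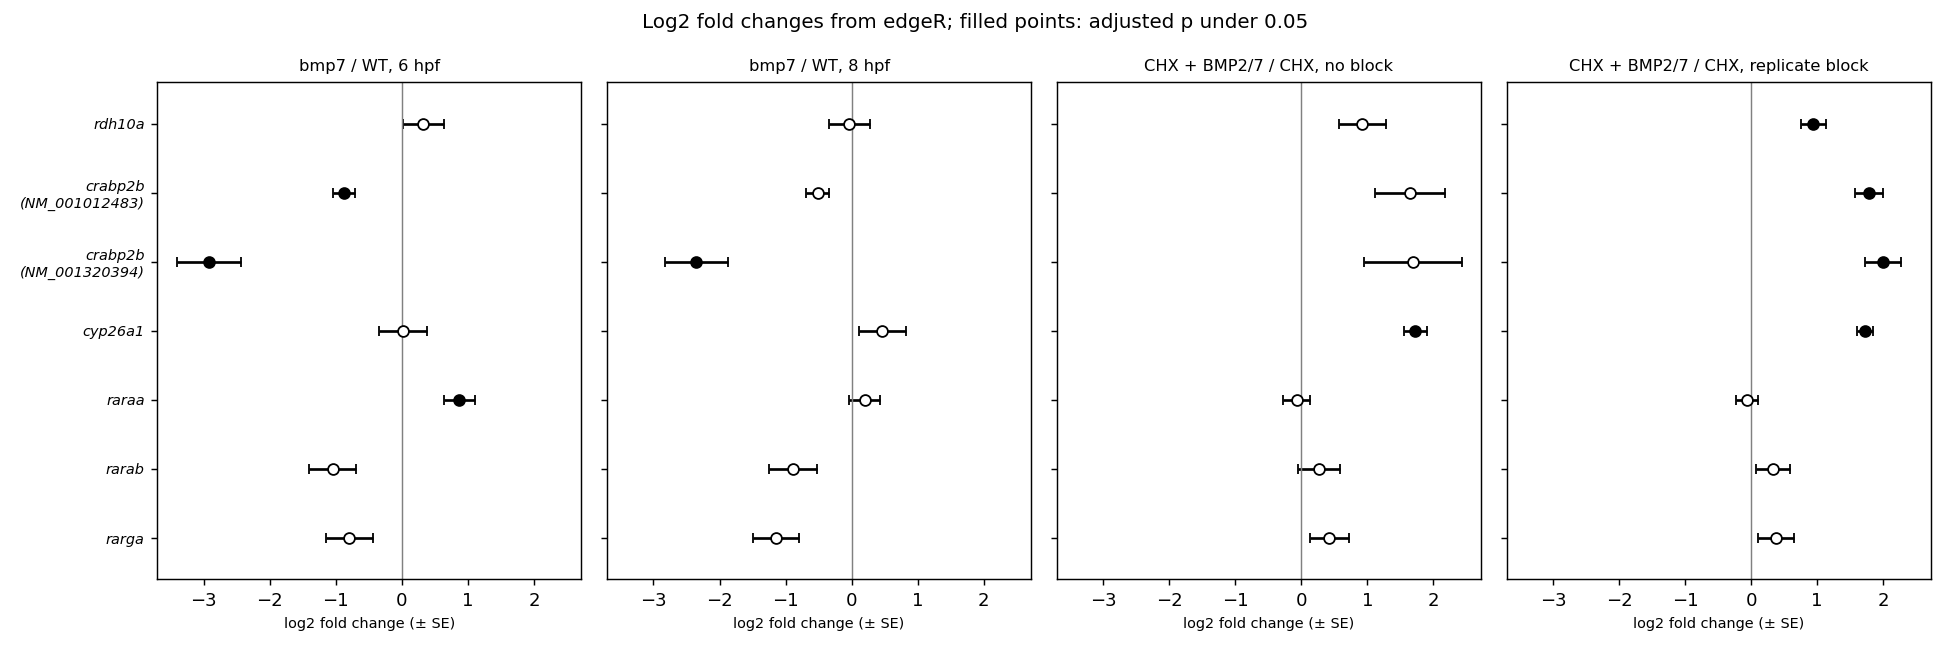
Log2 fold changes (points, with bars of 1 SE) of the 7 members tested in all of the comparisons shown, for bmp7 mutants over wild-type at 6 hpf and 8 hpf and for BMP2/7 protein over none in CHX-treated mutants, without and with the replicate number as a block; filled points have an adjusted p under 0.05. Both crabp2b transcripts lie left of 0 in the mutants and right of 0 with BMP2/7, while cyp26a1 is filled under CHX alone.

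The receptors came next. raraa and rarab encode RA receptors alpha, and rarga encodes RA receptor gamma, all of them transcription factors that RA switches from repression to activation. raraa had 35.8 and 41.0 CPM in mutants against 17.2 and 23.9 CPM in wild-type at 6 hpf, and 41.03 and 41.3 CPM against 33.6 and 38.3 CPM at 8 hpf. It was 1.83-fold higher in mutants at 6 hpf (log2 fold change 0.87, SE 0.24, adjusted p = 0.0390) and did not pass at 8 hpf (0.20, SE 0.23, adjusted p = 0.639). The 6 hpf call was close to the threshold. It was lost without wild-type 6 hpf replicate 1 (adjusted p = 0.195), without mutant 6 hpf replicate 1 (0.0764) or 2 (0.173), without mutant 8 hpf replicate 1 (0.0755) or 2 (0.0739), and with the 6 hpf libraries fitted alone (0.0961).

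rarab went the other way in its values. It had 3.33 and 2.93 CPM in mutants against 6.70 and 5.98 CPM in wild-type at 6 hpf, and 3.53 and 3.35 CPM against 7.47 and 5.27 CPM at 8 hpf. All 4 mutant libraries lay under all 4 wild-type libraries, but the log2 fold changes of -1.05 (SE 0.35, adjusted p = 0.0737) and -0.89 (SE 0.36, adjusted p = 0.182) did not pass. Within a stage, 30.7% of all transcripts tested lay lower in mutants without overlap at 6 hpf and 30.2% at 8 hpf. The share that did so over both stages together was not counted. In the same direction, rarga had 3.51 and 3.50 CPM in mutants against 5.33 and 6.57 CPM in wild-type at 6 hpf. At 8 hpf it had 5.07 and 8.92 CPM in mutants against 17.4 and 14.4 CPM in wild-type. Its log2 fold changes of -0.79 (SE 0.36, adjusted p = 0.154) and -1.14 (SE 0.35, adjusted p = 0.103) did not pass either. Whether the counting used strand was not stated, and rarga overlaps nr1d4a in the GRCz12tu annotation, so that part of its counts may belong to that gene. In the same annotation dhrs3a overlaps a long non-coding RNA and raraa a tRNA gene.

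With BMP2/7 protein under CHX none of the receptor genes passed the test. raraa had 8.39, 7.47 and 7.59 CPM with BMP2/7 and 8.18, 10.1 and 6.67 CPM without it, a log2 fold change of -0.07 (SE 0.20, adjusted p = 0.971). rarab had 3.71, 3.91 and 3.67 CPM with it and 2.70, 2.15 and 4.68 CPM without it (0.27, SE 0.32, adjusted p = 0.899). rarga had 3.36, 2.92 and 5.09 CPM with it and 3.27, 3.04 and 2.22 CPM without it (0.42, SE 0.30, adjusted p = 0.783). The groups overlapped for all 3 genes, and the block did not change these calls.

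The stages were compared within each genotype. In mutants, 3 of 9 tested members were higher at 8 hpf than at 6 hpf, where 5.28% of all transcripts were, and none was lower. The share over all transcripts rests on counts that depend on single libraries, with 1155 called in both directions together and 57 without mutant 8 hpf replicate 2. The members were crabp2a, at least 44.2-fold higher against 3 counts over the group (adjusted p = 0.00895), cyp26a1 with a log2 fold change of 1.40 (SE 0.37, adjusted p = 0.0420), and crabp2b NM_001012483 with 0.92 (SE 0.17, adjusted p = 0.0120). With 0 counts in mutants at 6 hpf, crabp2a passed the filter on low counts through 8 hpf libraries alone. It could only come out higher. Each of the 3 calls was lost without some single mutant library. Without mutant 6 hpf replicate 1 or mutant 8 hpf replicate 2, 0 members were called, and without mutant 8 hpf replicate 1 there was 1. The crabp2b call was also lost with all 14 libraries in the fit (adjusted p = 0.266).

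In wild-type, 1 of 9 was higher at 8 hpf, where 1.05% of all transcripts were. This was crabp2a, with a log2 fold change of 4.53 (SE 0.76, adjusted p = 0.0326). With replicate 1 of the wild-type 8 hpf libraries left out the log2 fold change became 3.27, and with replicate 2 left out 5.20. The call was lost without either wild-type 6 hpf library, wild-type 8 hpf replicate 1 or either mutant 8 hpf library (adjusted p between 0.0613 and 0.148), and with the 4 wild-type libraries fitted alone (adjusted p = 0.113). rarga had a log2 fold change of 1.42 (SE 0.34, adjusted p = 0.0813) and passed with DESeq2 (adjusted p = 0.0151). All 9 tested members had positive log2 fold changes from this comparison in both genotypes, with a median of 0.95 in mutants and 0.80 in wild-type beside 0.02 and 0.01 over all transcripts. However, dhrs3a had 0 counts in every 6 hpf library and crabp2a at most 8. Both passed the filter on low counts through 8 hpf libraries alone and could hardly come out lower. Their signs, and the calls of crabp2a, are therefore no evidence about the members as a set. The log2 fold change of rarab in wild-type, at 0.0078, was negative with RLE factors, with no filter, with DESeq2 and with the block. In mutants that of rdh10a (0.18) was negative without mutant 6 hpf replicate 2 or mutant 8 hpf replicate 1.

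Whether the genotype difference itself changed between 6 hpf and 8 hpf was tested as an interaction. No member passed, and no transcript did with edgeR in the fit of the 8 untreated libraries (0%), with 592 transcripts at an unadjusted p under 0.05. Other fits called 3 transcripts with no filter on low counts, 2 with all 14 libraries, 7 without wild-type 8 hpf replicate 1 and 34 with DESeq2, none of them a member. None of the members had an unadjusted p under 0.05. The log2 difference was 0.36 (SE 0.24, adjusted p = 0.946) for crabp2b NM_001012483 and -0.67 (SE 0.33, adjusted p = 0.880) for raraa, so the 6 hpf call of raraa is not shown to be particular to that stage.

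CHX-treated mutants without BMP2/7 protein were also set beside untreated mutants of 6 hpf. The 4 hpf of these libraries is the time of treatment. The paper states that they were collected at a fixed time after the injections, so they were older than 4 hpf. It gives no age in hpf for them. CHX, the age of the embryos and the separate experiment cannot be told apart here, and 58.2% of all transcripts differed. Of 8 tested members 4 were lower under CHX and none was higher, where 28.7% of all transcripts were lower. crabp2b NM_001012483 stood at 65.0 ± 50.2 CPM under CHX (SD, n = 3) against 507 ± 74.9 CPM in untreated mutants (SD, n = 2), a log2 fold change of -2.96 (SE 0.48, adjusted p = 0.00017) that was -3.81 without CHX replicate 2. raraa was 4.61-fold lower (-2.20, SE 0.21, adjusted p = 2.92e-06) and cyp26a1 2.64-fold lower (-1.40, SE 0.30, adjusted p = 0.00152). rdh10a was lower as well (-1.01, SE 0.36, adjusted p = 0.0292), a call that was lost without mutant 6 hpf replicate 1 (-0.56, adjusted p = 0.307), CHX replicate 1 (adjusted p = 0.0992) or CHX replicate 3 (adjusted p = 0.0578). crabp2b NM_001320394 did not pass (-0.82, SE 0.71, adjusted p = 0.336) and was lower without CHX replicate 2 (-2.26, adjusted p = 0.00561), while its log2 fold change was 0.09 without mutant 6 hpf replicate 1. The summed markers of the enveloping layer were 191 to 825 CPM under CHX against 7025 to 7807 CPM in untreated mutants, and their part in these differences was not tested.

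**Figure D5:**
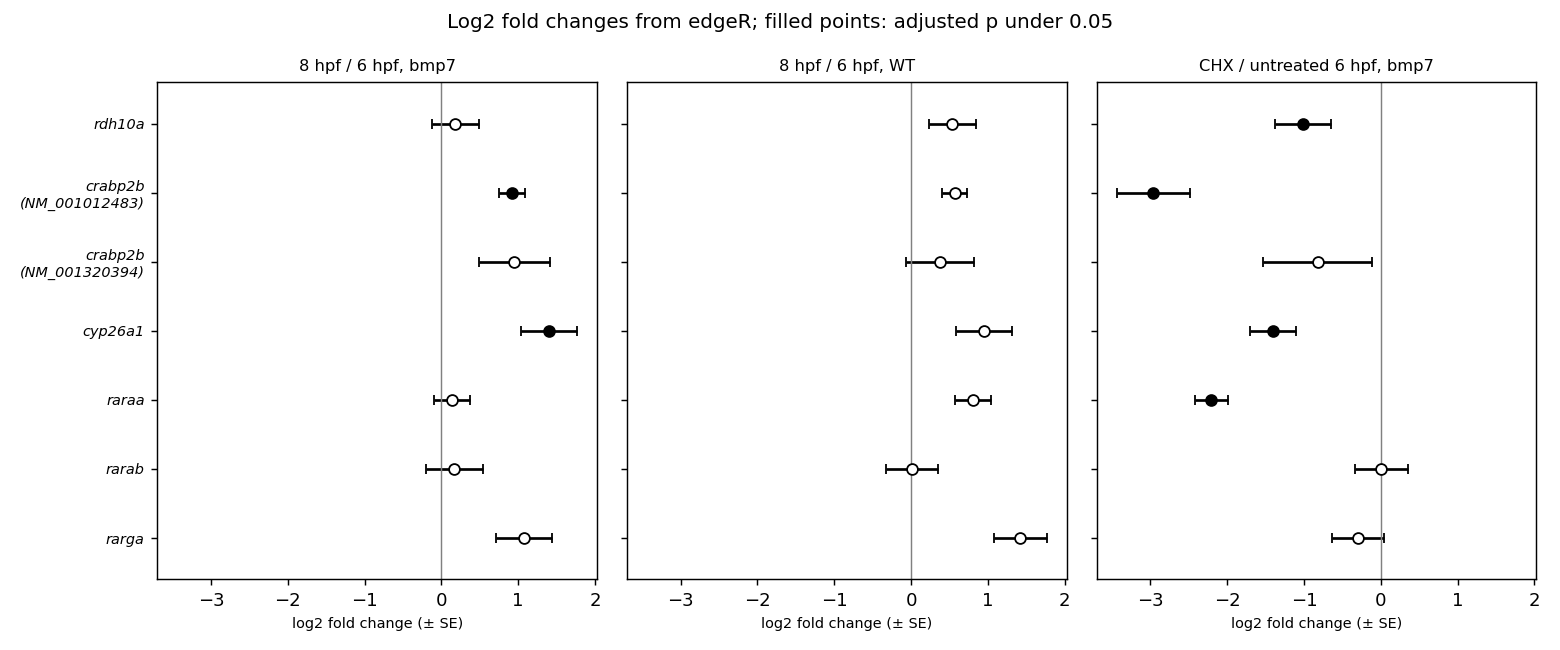
Log2 fold changes (points, with bars of 1 SE) of 7 members for 8 hpf over 6 hpf in bmp7 mutants and in wild-type, and for CHX-treated over untreated 6 hpf mutants; filled points have an adjusted p under 0.05. crabp2a, tested in each comparison and called higher at 8 hpf in both genotypes, is not shown, nor are dhrs3a and aldh1a2. The points shown for the stage comparisons lie at or right of 0, while raraa, rdh10a, cyp26a1 and crabp2b NM_001012483 lie left of 0 with filled points under CHX.

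Mean levels of the crabp2b transcript NM_001012483 were 937 CPM in mutants and 1344 CPM in wild-type at 8 hpf, 507 CPM in mutants and 909 CPM in wild-type at 6 hpf, and 202 CPM with BMP2/7 protein and 65.0 CPM without it under CHX. In order of these means wild-type at 8 hpf came first, followed by mutants at 8 hpf, wild-type at 6 hpf, mutants at 6 hpf, CHX with BMP2/7 and CHX alone. Mutants of 8 hpf and wild-type of 6 hpf overlapped, as did the CHX groups. cyp26a1 ran from 870.4 CPM in mutants at 8 hpf through 632 CPM in wild-type at 8 hpf, 419 CPM with BMP2/7 under CHX, 339 CPM in mutants and 328 CPM in wild-type at 6 hpf, to 128 CPM under CHX without BMP2/7. From wild-type at 8 hpf down to wild-type at 6 hpf each group overlapped with the next. CHX-treated mutants without BMP2/7 stood apart from all groups above them.

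Of 9133 other transcripts with an average log2 CPM of at least 1, the 5 whose log2(CPM + 0.5) followed crabp2b NM_001012483 most closely over the 14 libraries were those of fam222a (r = 0.979), fzd2 (0.977), dhrs3b (0.971), zic2a (0.953) and cebpa (0.953). dhrs3b is the paralogue of dhrs3a, fzd2 encodes a Wnt receptor, and zic2a and cebpa encode transcription factors. The 5 most like cyp26a1 were those of mdka (r = 0.959), foxc1b (0.922), arhgap36 with 2 transcripts (0.920 and 0.917) and irf2bp2a (0.915). mdka encodes the growth factor midkine and foxc1b a forkhead factor. The points share the 6 groups and the gap between CHX and untreated libraries, so the values only rank patterns.

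The wider retinoid pathway was followed in lists of 92 further genes, 63 of them in the table. At 6 hpf 38 could be tested, and 1 was higher and 5 were lower in mutants, beside 6.44% and 9.02% of all transcripts tested. bco1, whose enzyme cleaves beta-carotene to retinaldehyde, had 2.07 and 2.36 CPM in mutants against 9.46 and 7.81 CPM in wild-type (log2 fold change -1.99, SE 0.50, adjusted p = 0.0318). rxrba, a retinoid X receptor gene, had 94.3 and 54.0 CPM against 278 and 144 CPM (-1.54, SE 0.38, adjusted p = 0.0302). Of the receptor cofactors, the coactivator gene ncoa2 was lower (-1.08, SE 0.23, adjusted p = 0.0203), and so was the co-repressor gene ncor1, at 0.450 and 0.378 CPM in mutants against 26.3 and 52.4 CPM in wild-type (-6.56, SE 0.64, adjusted p = 0.00122). ncor1 had 5 and 4 counts in these mutant libraries. It passed the filter on low counts through wild-type libraries alone and could hardly come out higher. The ncor1 call is therefore no evidence about the lists. pbx4, which encodes a partner of Hox proteins, was lower (-1.28, SE 0.29, adjusted p = 0.0236), and adh5, an alcohol dehydrogenase gene, was higher, with 4.41 and 0.851 CPM in mutants against 0.120 and 0.0988 CPM in wild-type (4.46, SE 1.09, adjusted p = 0.0297). adh5 had 2 counts in each wild-type library of 6 hpf, and 4 and 8 in those of 8 hpf. It passed the filter on low counts through mutant libraries alone and could hardly come out lower. The adh5 call is therefore no evidence about the lists either.

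At 8 hpf 1 of 38 was higher and 1 lower in mutants, beside 1.12% and 2.07% of all transcripts tested. ncor1 was again lower, at 0.441 and 0.411 CPM in mutants against 19.2 and 48.4 CPM in wild-type (log2 fold change -6.30, SE 0.66, adjusted p = 0.00176). Its counts in these mutant libraries were 2 and 7, so the limit given for 6 hpf holds here too. The lower call at 8 hpf is therefore no evidence about the lists. In the CHX-treated mutants ncor1 lay between 0.167 and 0.892 CPM, with at most 0.427 CPM in the libraries with BMP2/7. nr2f5, which encodes an orphan nuclear receptor, was higher, at 38.4 and 104 CPM in mutants against 8.88 and 6.69 CPM in wild-type (3.21, SE 0.64, adjusted p = 0.0335). Under CHX 4 of 30 were higher with BMP2/7 protein and none was lower, beside 1.87% of all transcripts that were higher. All 4 stand in the list of genes known to respond to RA, of which 12 were tested, and no difference between the lists was tested. The homeobox gene cdx4 had 296, 181 and 167 CPM with BMP2/7 against 5.05, 23.2 and 6.99 CPM without it (4.18, SE 0.56, adjusted p = 0.00842). nr2f2, another orphan receptor gene, had 62.5, 45.4 and 42.4 CPM against 1.92, 2.10 and 5.32 CPM (4.05, SE 0.40, adjusted p = 0.00267). hoxb3a was higher as well (2.38, SE 0.42, adjusted p = 0.0288), and hoxb5a was at least 22.1-fold higher, with 0 counts in the libraries without BMP2/7 (adjusted p = 0.0121). hoxb3a had only 3 to 7 counts without BMP2/7. Both hox genes passed the filter on low counts through the BMP2/7 libraries alone and could hardly come out lower. The calls of these hox genes are therefore no evidence about genes that respond to RA. This reason does not cover cdx4, with 71, 441 and 88 counts without BMP2/7, or nr2f2, with 27, 40 and 67. As the lists were not tested against each other, the place of the 4 calls in 1 list is no evidence about such genes either.

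At 8 hpf against 6 hpf, 12 of the 38 genes were higher and 2 lower in mutants, and 8 were higher and none lower in wild-type. Over all transcripts tested 5.28% were higher and 5.67% lower in mutants, and 1.05% were higher in wild-type. Of the 14 tested genes known to respond to RA, 9 were higher in mutants and 6 in wild-type, and the lists were not tested against each other. Some list genes were near silent at 6 hpf, such as hoxb5a (0 counts in every 6 hpf library) and nr2f5 (at most 8). They passed the filter on low counts through 8 hpf libraries alone and could hardly come out lower. These counts, and the medians of the lists given below, are therefore no evidence about genes that respond to RA. The genes meis3 and meis2b were chosen after their values were seen. meis3, which encodes a Hox cofactor, stood at 214 ± 39.6 CPM at 8 hpf against 19.0 ± 10.8 CPM at 6 hpf in mutants (SD, n = 2 each, log2 fold change 3.53, SE 0.37, adjusted p = 0.00249). meis2b, another such gene, was higher at 8 hpf in mutants (5.004, SE 0.61, adjusted p = 0.00353) and in wild-type (4.71, SE 0.59, adjusted p = 0.0130). Over the lists as a whole the median log2 fold change was 0.93 in mutants and 0.81 in wild-type. It was 0.02 for mutants over wild-type at 6 hpf, -0.0021 at 8 hpf and 0.01 for BMP2/7 under CHX.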

How the data were processed

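RNA-seq of polyadenylated RNA (stranded kit) was analysed in 14 libraries of 40 or 50 embryos. The authors mapped the reads with RNA-seq Unified Mapper on the GRCz11 assembly, and the deposited table gives raw read counts per RefSeq transcript, which were used. Neither the mapper's version nor whether counting used strand is stated in the sources read. The authors' normalized log2 values and their own fold changes and p-values were not used. The tests ran in R 4.3.3 with edgeR 4.0.16: TMM factors, filterByExpr with a minimum count of 10, and glmQLFit with glmQLFTest. The 8 untreated libraries were fitted as 4 groups (10555 transcripts tested), the 6 CHX libraries as 2 groups (9937) and all 14 as 6 groups for CHX against untreated mutants (11335). The standard error is the log2 fold change over the root of F. Folds against a group at 0 counts are lower bounds, computed with 3 counts in that whole group.

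Members, gene lists and the rule for named genes (all members, list genes called in a BMP comparison, and the 5 transcripts most like crabp2b and cyp26a1) were chosen with earlier results of these data known. Genes named outside the rule are marked as chosen after their values were seen. Deviations of same-numbered CHX libraries from their group means correlated at 0.415, 0.744 and 0.644. The main fit of the CHX libraries had no block and so did not use this pairing. A fit with the replicate number as a block is given beside it, on the evidence of the data and not of a stated batch. Alternatives were RLE factors, no filter, DESeq2 1.42.0, counts summed per gene, other sets of libraries in the fit, leaving out each library, and a block for the replicate number. Of the 10 transcripts, 9 matched the RefSeq gene table of GRCz12tu, used for names and overlaps only.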

Additional observations from a re-analysis of the deposited data

How the results depend on the processing

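The refits gave 888 log2 fold changes, each of 1 member transcript in 1 comparison and 1 refit. Of these, 842 stayed on their side of the threshold, 15 passed newly and 31 no longer passed. Values from the same refit are not independent. The sign turned in 26 of the 888 values, none of them past the threshold before or after, which touched 13 of 60 main log2 fold changes. The number of members called was 3 for mutants against wild-type at 6 hpf and 1 to 4 with a library left out. At 8 hpf it was 1, 0 with all 14 libraries in the fit, and 0 to 1 with a library left out. With BMP2/7 protein under CHX it was 1, 4 with the replicate number as a block, and 1 to 3 with a library left out. For 8 hpf against 6 hpf in wild-type it was 1, 2 with DESeq2 or with all 14 libraries, 3 with the block, 0 with the wild-type libraries alone and 0 to 1 with a library left out, and in mutants it was 3 and 0 to 3. The cause of these changes was not tested. Where leaving out a library left 1 in its group, that library was assumed to vary like the other groups. Over all transcripts, 1632 were called at 6 hpf, 908 with that stage fitted alone, 2529 with the block, 2544 with all 14 libraries, and 283 to 1644 with a library left out. At 8 hpf these counts were 337, 614, 990, 1000 and 47 to 495, and 665 without a filter and 965 with DESeq2. Under CHX 219 were called, 790 with the block, 389 with DESeq2 and 92 to 203 with a library left out. For 8 hpf against 6 hpf in wild-type 187 were called, 603 with DESeq2, 553 with the block, 575 with all 14 libraries, 9 with the wild-type libraries alone and 13 to 239 with a library left out. In mutants these counts were 1155, 1601, 1742, 1923, 1602 and 57 to 1316.

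For untreated libraries, 2 a group, the replicate number was not taken as a pairing. Deviations of same-numbered libraries correlated at 0.236 between the genotypes at 6 hpf and -0.0254 at 8 hpf, at 0.372 between the stages in mutants and 0.483 in wild-type, and at -0.0157 and -0.149 between CHX-treated and untreated mutants. The block there passed cyp26a1 (adjusted p = 0.0418) and rarga (adjusted p = 0.0424) for 8 hpf against 6 hpf in wild-type, and for CHX against untreated mutants crabp2b NM_001320394 (-1.71, adjusted p = 0.0134). With 0 to 15 counts a library, the values of aldh1a2 and dhrs3a rest on few reads.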

Other observations

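Other retinoid genes differed between CHX-treated mutants without BMP2/7 protein and untreated 6 hpf mutants, a comparison in which treatment, time and experiment cannot be told apart. The genes named here were chosen after their values were seen. cyp26c1, whose product breaks down RA as that of cyp26a1 does, stood at 32.9 ± 2.38 CPM under CHX (SD, n = 3) against 0.786 CPM in untreated mutants (mean of 2), a log2 fold change of 5.37 (SE 0.71, edgeR adjusted p = 3.53e-05), where cyp26a1 was lower under CHX (-1.40, SE 0.30, edgeR adjusted p = 0.00152). dhrs3b, the paralogue of dhrs3a, stood at 5.46 ± 4.21 CPM under CHX (SD, n = 3) against 106 CPM in untreated mutants (-4.24, SE 0.49, edgeR adjusted p = 1.22e-05). rbp7a, which encodes a retinol binding protein of the cell, was at 6.51 ± 2.37 CPM (SD, n = 3) against 173 CPM (-4.72, SE 0.31, edgeR adjusted p = 2.02e-07). Over all retinoid lists 16 of 45 tested genes were higher and 12 lower under CHX, in a comparison where 58.2% of all transcripts differed.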
